A study of Mus musculus with 9 samples.

Results

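Cytosolic ribosomal proteins are described here in fibroblasts of mouse spleen and lymph node. The genes were chosen by name: a protein-coding row whose symbol is Rpl or Rps with a number, Rplp0, Rplp1, Rplp2 or Rpsa, or such a name ending in l. The rule found 80 of the 27370 genes in the table, 32 for the small subunit and 48 for the large subunit. PolyA RNA was sequenced from 9 libraries in 3 groups of 3, each library from 2 mice. The first group was lymph node fibroblastic reticular cells (FRC) of untreated mice, sorted as tdTomato- cells. The second was splenic red pulp fibroblasts (RPF) of untreated mice, sorted as tdTomato+ cells, and the third was RPF of mice treated with diphtheria toxin, labelled as the depleted state. All 3 groups came from Wt1CreERT2 RosatdTomato CD64DTR mice aged 4 months, so the controls carried the toxin receptor allele and the Cre driver as well. CD64 is an Fc receptor of macrophages, and CD64DTR places the diphtheria toxin receptor on cells that express it, while Wt1CreERT2 is an inducible Cre driven from the Wt1 gene that marks cells through the tdTomato reporter. Each group stood for 45000 sorted CD45- cells of 6 mice, and the FRC came from 78 lymph nodes. Toxin dose and time after treatment were not given in the sources used here.

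Every protein of a cell is made by ribosomes, and each ribosome holds a set of ribosomal proteins around its RNA core. The small subunit reads the mRNA and the large subunit joins amino acids and holds the tunnel through which the new chain leaves. Messenger RNAs of ribosomal proteins begin with a C followed by an uninterrupted run of pyrimidines, the 5′ terminal oligopyrimidine (TOP) tract, which couples their translation to the growth kinase complex mTORC1 through the RNA-binding protein Larp1. Fibroblasts of the red pulp and the lymph node form the scaffold on which macrophages and lymphocytes of these organs live.

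Library totals ran from 25414645 to 43879806 counts. The sum of 6 splenic fibroblast markers was 1389 to 1584 CPM in steady-state RPF, 621 to 757 CPM in depleted RPF and 130 to 162 CPM in FRC. The sum of 5 lymph node FRC markers was 2732 to 3207 CPM in FRC and 87.6 to 255 CPM in the 6 RPF libraries. CPM, the unit of level used here, is a gene's count scaled to a library of fixed size with a factor from TMM, a method that sets libraries to a common level of most genes. Of 12 macrophage markers in the table, 11 were tested and 8 were lower in depleted than in steady-state RPF. Their sum was 74.7 to 84.3 CPM in FRC, 2297 to 3515 CPM in steady-state RPF and 215 to 303 CPM in depleted RPF. Most of it in steady-state RPF was Slc40a1, the iron exporter ferroportin, and without that gene the sums were 66.9 to 81.4, 255 to 290 and 79.9 to 115 CPM. Cd5l, C1qa, Adgre1 and Fcgr1 had no count in the 3 depleted libraries. The sum of 8 erythroid markers was 1.25 to 99.3 CPM in FRC, 361 to 936 CPM in steady-state RPF and 485 to 813 CPM in depleted RPF. Neutrophil and progenitor markers (8 genes) summed to 374 to 535 CPM in FRC, 53.7 to 311 CPM in steady-state RPF and 7.37 to 44.3 CPM in depleted RPF. Most of these genes went against the sum between the organs, with 7 of 8 positive in steady-state RPF over FRC (median log2 6.71). Of the 8, 4 were called higher and 1 lower, against 11.5% and 14.4% of all genes. The progenitor marker Cd34 was lower in steady-state RPF, at -6.65 on the log2 scale with scaling to total counts (adjusted p = 0.00524 by edgeR). Leukocyte markers, mostly of B and T cells and with Ptprc and Cd74 among them, summed to 343 to 431 CPM in FRC, 190 to 389 CPM in steady-state RPF and 82.5 to 121 CPM in depleted RPF. Of 7 tested, 5 were positive in steady-state RPF over FRC, none was called higher and 1 lower, against 11.5% and 14.4% of all genes. With scaling to total counts the log2 differences were -0.76 for Cd74, 0.79 for Cd79a and 0.72 for Cd79b, none of them called. Endothelial markers summed to 26.8 to 58.5 CPM in FRC, 55.3 to 170 CPM in steady-state RPF and 27.3 to 34.0 CPM in depleted RPF. General fibroblast markers summed to 55160 to 59580 CPM in FRC, 6621 to 7711 CPM in steady-state RPF and 5712 to 6324 CPM in depleted RPF. The part of these other cells in the results below was not tested. FRC replicate 1 and steady-state RPF replicate 1 held 69 and 24 counts of Y-linked genes, against 2315 to 6124 in the other 7 libraries, so results are also given without these 2 libraries where they move a call. FRC and steady-state RPF came from untreated mice that gave both organs, and which of their libraries share mice was not given in the sources used here.

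Transcript starts carry the feature that links these genes, so windows around the RefSeq start sites (build GRCm38.p6) were read for members with a tract at the annotated start. Each window holds 15 bases before and 15 bases from the start. Capitals mark the tract, a C at the start base followed by at least 4 pyrimidines. The positions are on the strand given.
Rpl14, chr9:120571502-120571531, plus strand: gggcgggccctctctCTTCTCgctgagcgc
Rpl15, chr14:18270972-18271001, minus strand: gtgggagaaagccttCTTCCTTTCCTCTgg
Rpl35a, chr16:33056467-33056496, plus strand: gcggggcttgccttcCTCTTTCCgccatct
Rplp2, chr7:141447636-141447665, plus strand: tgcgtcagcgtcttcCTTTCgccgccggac
Rps6, chr4:86857353-86857382, minus strand: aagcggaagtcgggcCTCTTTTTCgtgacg
Rps10, chr17:27635230-27635259, minus strand: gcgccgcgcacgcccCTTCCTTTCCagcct
Rps18, chr17:33955651-33955680, minus strand: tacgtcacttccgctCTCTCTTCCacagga
The most abundant members are shown as well, and their annotated start bases open no such tract. The Rpl4 window holds a pyrimidine run before that base. Whether transcripts in these cells start at the annotated base was not tested.
Rpl4, chr9:64173372-64173401, plus strand: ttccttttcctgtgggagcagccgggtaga
Rplp0, chr5:115559452-115559481, plus strand: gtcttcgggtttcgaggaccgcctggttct
A translation factor and a host gene of small nucleolar RNAs outside the family show the same start.
Eif3f, chr7:108934400-108934429, plus strand: tctgttctaggctctCTCTCTTTCTCggca
Gas5, chr1:161035151-161035180, plus strand: agccgccatctcagcCTTTCggagctgtgc

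RefSeq entries were found by symbol for 60 of the 80 members. A tract lay at an annotated start in 13 of the 60 (21.7%), against 3.01% of 27025 genes in the same table, and was 5 to 13 bases long. Within 20 bases on either side of the start, a tract on the sense strand was found in 80% of members and in 51.4% of all genes. In the window from 250 bases before to 50 bases after the start, the letters CCGGAAG, the core bound by ETS-family factors, stood on either strand in 43.3% of members and 9.93% of all genes. They stood in 19.1% of the 10770 matched genes that were tested in these cells. The YY1 core AAGATGG was found in 15% of members, 7.28% of all genes and 8.17% of tested genes, and the GC box GGGCGG in 60% and 38.2%, with 67.4% among tested genes. The box TATAAA was found in 10% of members, 15.7% of all genes and 8.98% of tested genes. Matches of different motifs can share bases, and a match describes the sequence only.

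Levels of the members spread widely in every group. Per kb of transcript, the mean over the 9 libraries ran over a 576-fold range among the 78 tested members. The highest were Rpl4 at 669, Rplp0 at 524, Rpl8 at 363 and Rps3 at 360.01 CPM per kb. Rpl4 lines the exit tunnel, Rplp0 is the base of the stalk that recruits elongation factors, Rpl8 lies near the catalytic centre, and Rps3 sits where the mRNA enters the small subunit. The 5 highest members held 51.4% to 59.7% of all member counts in each library. The lowest tested members were Rpl23a at 1.16, Rpl35 at 1.64 and Rpl24 at 1.82 CPM per kb. Rpl23a and Rpl35 surround the tunnel exit and Rpl24 takes part in the bridge between the subunits. Before any length correction, 6 members had a mean of at least 100 CPM and 8 a mean under 1 CPM. The order of levels was close to the same in the groups, with a Spearman rank correlation of 0.97 between FRC and steady-state RPF and 0.98 between depleted and steady-state RPF over 78 members, which share the same libraries.

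Members that share sequence with other genes had lower levels. Ribosomal protein genes have many processed copies in the mouse genome, and a read that fits several places may not be counted for any. For each member, the share of its 50-base words that also occur in transcripts of other genes (GENCODE annotation of GRCm38) was counted, and its median was 37.1%. The share was 2.82% for Rps3, 6.3% for Rpl8, 16.5% for Rpl4 and 34.5% for Rplp0. It was 85.7% for Rpl23a, 95.1% for Rpl35 and 81.7% for Rpl24, the 3 lowest. Across the 78 tested members the rank correlation of this share with the level per kb was -0.53, and -0.44 and -0.59 with words of 30 and 100 bases. The median level was 62.5 CPM per kb in the 19 members sharing under 25% of words (Rpl3l and Rpl39l included), 17.8 in the 34 sharing 25% to 50%, 11.4 in the 16 sharing 50% to 75% and 3.38 in the 11 sharing at least 75%. With the log2 fold changes the share had rank correlations of 0.17 after depletion and -0.21 between the organs. Separate rows for 194 pseudogenes named after members held 0.0013% to 0.0037% of counts. A low level of a member, or a low share of the whole family, is a low level of counted reads here. The treatment of reads with several matches was not given in the sources used here. How far these levels and shares stand from those of the mRNA in the cells was not tested. Whether the shared sequence lowered the counts was not tested.

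**Figure D1:**
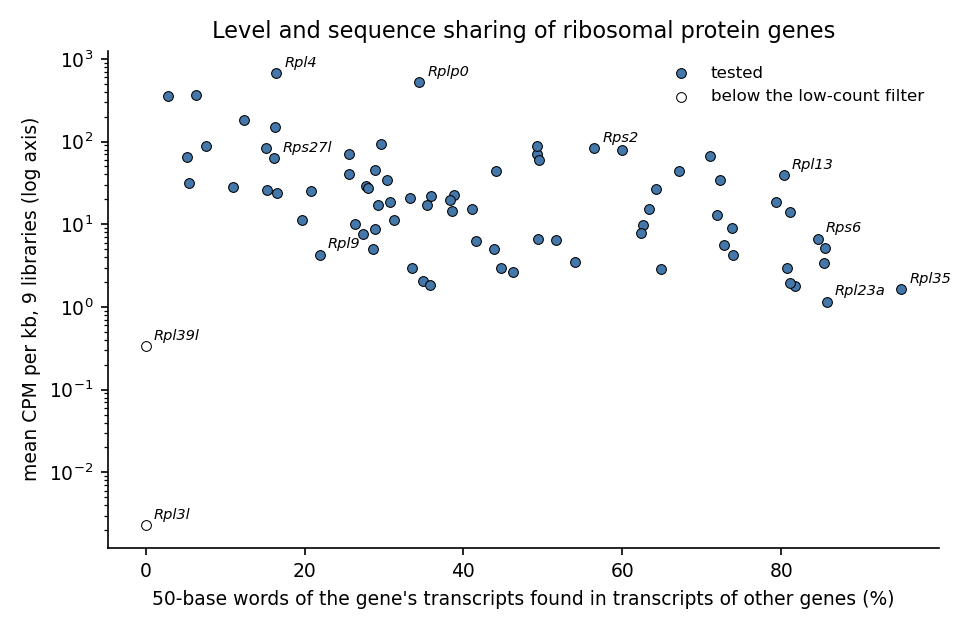
Mean level over 9 libraries (CPM per kb, log axis) of the members against the percent of its 50-base words that occur in transcripts of other genes, 1 point per gene, with open points for Rpl3l and Rpl39l, which failed the low-count filter. Rpl4, Rplp0, Rpl8 and Rps3 lie at the top with 2.82% to 34.5% shared words, and Rpl23a and Rpl35 lie at the lower right.

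The first comparison set depleted RPF, from toxin-treated mice, against steady-state RPF of untreated mice. Toxin exposure and loss of macrophages cannot be told apart in this design, and the words after depletion stand for both. Ribosomal protein genes took a larger share of the counted reads after depletion. They made up 0.197%, 0.180% and 0.212% of counts in the 3 steady-state RPF libraries and 0.506%, 0.487% and 0.553% in the 3 depleted ones, so the groups did not overlap. The means were 0.197% ± 0.016 and 0.515% ± 0.034 (SD, n = 3 libraries each), a ratio of 2.62. The ratio was 2.55 for the small subunit and 2.68 for the large one. Without the 5 most abundant members the share was still 0.0905% ± 0.012 at steady state and 0.224% ± 0.018 after depletion (SD, n = 3). In these bulk libraries, fewer cells of a type and less RNA per cell cannot be told apart.

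**Figure D2:**
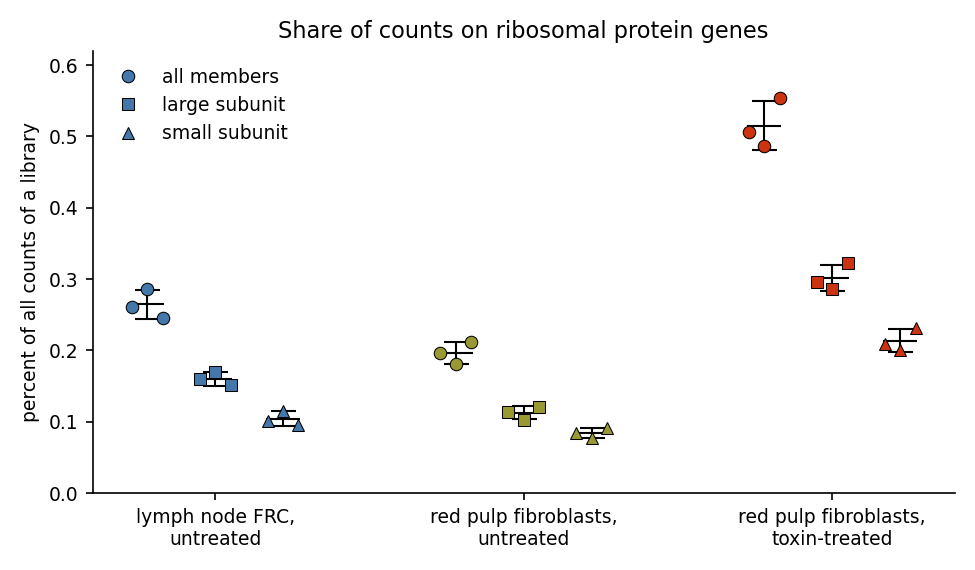
Percent of a library's counts on the 80 cytosolic ribosomal protein genes (circles), on the large subunit (squares) and on the small subunit (triangles), 1 point per library, with the mean and SD of each group of 3. For all members, depleted (toxin-treated) RPF lie at 0.487% to 0.553%, FRC at 0.246% to 0.286% and steady-state RPF at 0.180% to 0.212%, with no overlap between groups.

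Gene by gene, 51 of 78 tested members rose after depletion at an adjusted p under 0.05 (edgeR quasi-likelihood test, adjusted over 15103 genes), while 11.1% of all tested genes did. None fell, against 9.96% of all genes. DESeq2 called 59 higher and limma-voom 57, 60 were higher at an unadjusted p under 0.05 in edgeR, and by all of these measures 0 were lower. The log2 fold change was positive in all 78 tested members, with a median of 1.52 and quartiles of 1.27 and 1.79, and the median of all genes was -0.09. The libraries of both groups did not overlap for 70 members, all higher in depleted RPF, against 21.4% of all genes, and for 0 members lower, against 23% of all genes. Of the called members, 50 changed by more than 2-fold. P-values measure the spread between pooled libraries of 2 mice each, and the model took that spread from all 3 groups.

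Rpl4 (chr9:64173375-64178666) read 263, 226 and 274 CPM at steady state and 803, 766 and 817 CPM after depletion. The groups were far apart, at a log2 fold change of 1.64 ± 0.10 (SE, adjusted p = 2.67e-05). Rps2, at the mRNA entry of the small subunit (chr17:24718116-24721929), read 34.2, 32.8 and 36.5 CPM at steady state and 120, 119 and 146 CPM after depletion. Its log2 fold change was 1.90 ± 0.14 (SE, adjusted p = 5.16e-05), and depleted replicate 3 stood above the others. Rpl8 (chr15:76904078-76906314) read 159, 162 and 158 CPM at steady state and 438, 453 and 481 CPM after depletion, a log2 fold change of 1.52 ± 0.11 (SE, adjusted p = 5.68e-05). Rps3 (chr7:99477896-99483738) read 211, 189 and 202 CPM at steady state and 470, 455 and 529 CPM after depletion, a log2 fold change of 1.27 ± 0.12 (SE, adjusted p = 0.000128). Every depleted library stood above every steady-state library for these 4 genes. In the list of 12 proteins of the small-subunit head and mRNA path, 9 rose, against 51 of 78 tested members and 11.1% of all genes. A further member of that list, Rps12, stood at 0.265 to 0.632 CPM at steady state and 0.960 to 1.46 CPM after depletion, with a log2 fold change of 1.37 (adjusted p = 0.42).

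The 3 proteins of the P stalk, which draws elongation factors to the large subunit, all rose. Rplp0 (chr5:115559467-115563727) read 194, 164 and 178 CPM at steady state and 638, 625 and 703 CPM after depletion, a log2 fold change of 1.88 ± 0.11 (SE, adjusted p = 1.95e-05). Rplp1, which forms the outer stalk with Rplp2, read 21.1, 18.8 and 27.6 CPM against 65.2, 56.7 and 76.0 CPM, a log2 fold change of 1.55 ± 0.23 (SE, adjusted p = 0.0016). Rplp2 read 6.81, 4.90 and 10.1 CPM against 19.3, 15.8 and 20.4 CPM, a log2 fold change of 1.35 ± 0.37 (SE, adjusted p = 0.0298). The call of Rplp2 is the least firm of the 3: its adjusted p was 0.116 without the 2 libraries that lack Y-linked counts, and 0.0572 to 0.103 when any RPF library but steady-state replicate 3 was left out. With total-count scaling it was 0.0523, at a log2 fold change of 1.18, and with no filter on low counts it was 0.0729. Of 9 proteins listed around the exit tunnel, 4 rose, against 51 of 78 tested members and 11.1% of all genes. With total-count scaling 3 of the 9 rose.

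Rps6 and Rps27a both rose. Rps6, whose protein is phosphorylated by S6 kinase downstream of mTORC1 (chr4:86854660-86857412), read 1.62, 1.68 and 1.92 CPM at steady state and 8.67, 9.74 and 8.21 CPM after depletion. Its log2 fold change was 2.35 ± 0.50 (SE, adjusted p = 0.00947). Rps27a, which is made as a fusion with ubiquitin, read 2.28, 2.05 and 1.42 CPM against 11.3, 7.88 and 8.70 CPM, a log2 fold change of 2.27 ± 0.56 (SE, adjusted p = 0.0193). Both lie at low counts and share 84.6% and 62.4% of their words with other genes. Leaving out any RPF library but depleted replicate 2 took the adjusted p of Rps27a to between 0.0504 and 0.0731.

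Rpl5 and Rpl11 join the 5S ribosomal RNA in a particle that also binds Mdm2, the ligase that degrades p53. Rpl5 read 0.894, 1.34 and 0.959 CPM at steady state and 4.25, 3.51 and 4.53 CPM after depletion. Rpl11 read 0.426, 0.415 and 0.496 CPM against 2.33, 4.78 and 2.32 CPM. The groups did not overlap for either gene, and the log2 fold changes were 1.94 ± 0.67 and 2.81 ± 0.99 (SE), but neither passed (adjusted p = 0.0717 and 0.0785 by edgeR). DESeq2 called both, at adjusted p = 0.00159 and 0.0109.

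Whether a member was called followed its level. Of 44 members with a mean of at least 10 CPM, 43 rose, and of 34 tested below that level 8 did. The median log2 fold change was 1.54 in the former and 1.51 in the latter. The exception above 10 CPM, Rpl22, which was singled out after its values were seen, read 25.3, 26.8 and 30.3 CPM at steady state and 28.6, 50.4 and 47.5 CPM after depletion. Its groups overlapped in depleted replicate 1, and the log2 fold change was 0.62 ± 0.25 (SE, adjusted p = 0.125). Small and large subunits were alike in count, with 24 of 32 and 27 of 46 tested members higher and medians of 1.48 and 1.54. In a list of 19 genes mutated in human Diamond-Blackfan anaemia, a failure of red cell production, 11 rose. Of all tested members 51 of 78 rose, and of all genes 11.1%. With total-count scaling 9 of the 19 rose. Of members with a tract at the annotated start base 8 of 13 rose, with a median of 1.62. Of those without one at that base 30 of 45 rose, with a median of 1.51. Within 20 bases of the start, the counts were 31 of 46 with a tract and 7 of 12 without one.

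**Figure D3:**
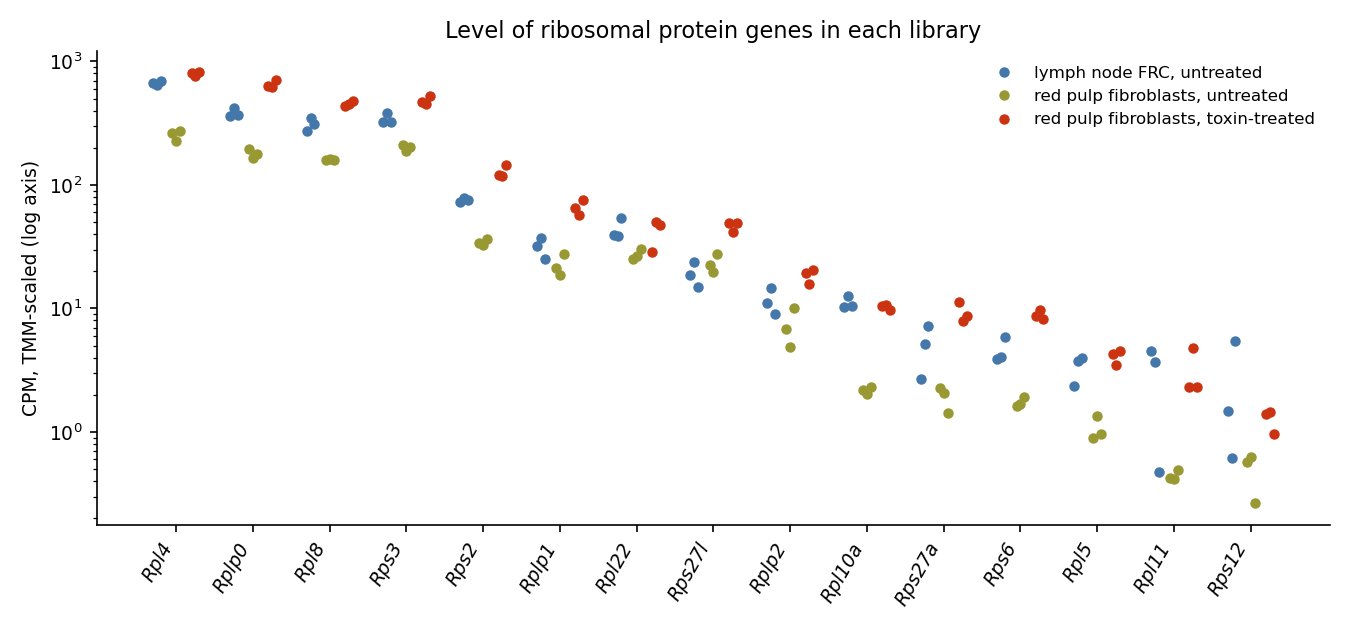
TMM-scaled CPM (log axis) of named members in each of the 9 libraries, 1 point per library: FRC in blue, steady-state (untreated) RPF in olive, depleted (toxin-treated) RPF in red. For Rpl4, Rplp0, Rpl8, Rps3 and Rps2 the depleted RPF points lie above FRC and the steady-state RPF points below, while the points of low members such as Rpl11 and Rps12 scatter.

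The second comparison set steady-state RPF against FRC and asked how the fibroblasts of both organs differ without treatment. RPF were sorted as tdTomato+ and FRC as tdTomato- cells, so organ and sort gate cannot be told apart in differences between the organs. Ribosomal protein genes held the smaller share of counted reads in the spleen cells. They made up 0.261%, 0.286% and 0.246% of counts in FRC (mean 0.264% ± 0.020, SD, n = 3). In steady-state RPF they made up 0.180% to 0.212%, a ratio of 0.743 to FRC. On TMM-scaled CPM the ratio of the sums was 0.498. The scaling matters here, because the TMM factors were 0.765 to 0.827 in FRC and 1.18 to 1.20 in steady-state RPF.

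Of 78 tested members, 30 were lower in RPF than in FRC (adjusted p under 0.05, edgeR), against 14.4% of all genes, and 0 were higher, against 11.5% of all genes; with scaling to total counts 12 were lower and 1, Rps27l, was higher. DESeq2 and limma-voom gave 41 and 31 lower and 0 higher, and at an unadjusted p under 0.05 edgeR gave 43 lower and 0 higher. The median log2 difference was -0.93, with 76 members negative, and the median of all genes was -0.02. With total-count scaling the members' median was -0.36 with 58 negative, while the median of all genes moved to 0.55. The libraries did not overlap for 51 members, all lower in RPF, against 23.1% of all genes, and for 0 higher, against 21.5%. Without steady-state RPF replicate 2, the count of lower members was 19, and without the 2 libraries that lack Y-linked counts it was 20.

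Rpl4 read 670, 641 and 696 CPM in FRC against 226 to 274 CPM in steady-state RPF, the lowest p of the family, at a log2 difference of -1.40 ± 0.10 (SE, adjusted p = 1.56e-05). Rplp0 read 363, 417 and 369 CPM in FRC, at a log2 difference of -1.10 ± 0.11 (SE, adjusted p = 0.000101). With total-count scaling these differences were -0.82 and -0.52 (adjusted p = 0.000307 and 0.00579 by edgeR). For both genes every RPF library stood under every FRC library. Rpl8 read 273, 348 and 311 CPM in FRC, at -0.96 ± 0.11 (SE, adjusted p = 0.000255). Rps2 read 73.4, 78.3 and 75.5 CPM in FRC, at -1.14 ± 0.13 (SE, adjusted p = 0.000283). Total-count scaling gave -0.38 for Rpl8 and -0.56 for Rps2 (adjusted p = 0.0228 and 0.0125 by edgeR). Rps3 read 321, 385 and 323 CPM in FRC, at -0.77 ± 0.12 (SE, adjusted p = 0.00115), and its difference was -0.20 (adjusted p = 0.226) with total-count scaling.

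By role, 8 of 12 proteins of the small-subunit head and mRNA path were lower in RPF, 1 of 3 of the P stalk, 2 of 9 around the tunnel, 5 of 19 in the anaemia list, and neither Rps6 nor Rps27a, where 14.4% of all genes were lower. With total-count scaling the counts were 3 of 12, 1 of 3, 1 of 9 and 2 of 19, and again neither Rps6 nor Rps27a. Rps6 stood at 3.92, 4.03 and 5.85 CPM in FRC (log2 difference -1.40, adjusted p = 0.0614). Rps27a stood at 2.70, 5.12 and 7.19 CPM (log2 difference -1.38, adjusted p = 0.0974). Their FRC libraries lay above all steady-state RPF libraries. Rpl5 stood at 2.37, 3.79 and 4.00 CPM in FRC (log2 difference -1.66, adjusted p = 0.0992), also above all steady-state RPF libraries. Rpl11 stood at 4.49, 3.69 and 0.477 CPM in FRC (log2 difference -2.69, adjusted p = 0.0777), with replicate 3 at the RPF level. DESeq2 called all 4 lower, at adjusted p = 0.00202 for Rps6, 0.0296 for Rps27a, 0.00688 for Rpl5 and 0.0132 for Rpl11. Among members singled out after their values were seen, Rpl10a read 10.3, 12.6 and 10.4 CPM in FRC and 2.03 to 2.32 CPM in RPF. Its log2 difference of -2.35 ± 0.37 (SE, adjusted p = 0.0016) was larger than that of Rpl4. Of the small and the large subunit, 14 of 32 and 16 of 46 tested members were lower.

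Among the tested members only Rps27l and Rpl36a had a positive log2 difference between the organs, at 0.28 and 0.27. Neither was called with TMM scaling. Rps27l encodes a close relative of Rps27 that p53 is known to induce. It read 18.6, 23.9 and 14.8 CPM in FRC, 22.3, 19.8 and 27.6 CPM in steady-state RPF and 49.6, 41.8 and 49.1 CPM in depleted RPF. Its log2 difference between steady-state RPF and FRC was 0.28 ± 0.24 (SE, adjusted p = 0.438), or 0.86 (adjusted p = 0.0236) with total-count scaling. It rose after depletion by 1.01 ± 0.24 on the log2 scale (SE, adjusted p = 0.0157), a call lost without the 2 libraries that lack Y-linked counts (adjusted p = 0.0753), and without steady-state RPF replicate 1 or 2 or depleted replicate 1 or 3 (0.0529 to 0.0666). Rps27 itself, named for comparison after its values were seen, read 0.602 to 1.67 CPM after depletion and 0.728 to 1.01 CPM at steady state (log2 fold change 0.24, adjusted p = 0.901). Rpl3l and Rpl39l, 2 further members whose names end in l, were nearly silent. Rpl3l, known from heart and skeletal muscle, had 1 count in steady-state RPF and none in the other groups. Rpl39l, known from the testis, had 61 counts in FRC, 0 in steady-state RPF and 2 in depleted RPF, and both genes failed the filter on low counts.

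The third comparison, added after the first 2 and sharing their libraries, set depleted RPF against FRC. Of 78 tested members, 21 were higher in depleted RPF (adjusted p under 0.05, edgeR), against 16.9% of all genes, and 0 were lower, against 18.8% of all genes. With total-count scaling 42 were higher and 0 lower. DESeq2 and limma-voom called 27 and 28 higher and 1 lower, Rpl9 in both, and at an unadjusted p under 0.05 edgeR gave 30 higher and 1 lower. The median log2 difference was 0.65, and 64 members were positive. Libraries did not overlap for 48 members higher in depleted RPF (24.5% of all genes) and for 2 lower (25.8% of all genes), Rpl3 and Rpl9. Rplp0 was higher by 0.78 ± 0.11 on the log2 scale (SE, adjusted p = 0.000621). Rps27l differed by 1.29 ± 0.24 (SE, adjusted p = 0.00281) and Rpl4 by 0.25 ± 0.10 (SE, adjusted p = 0.0859). Rpl4 was called higher with total-count scaling (0.66, adjusted p = 0.000771), with upper quartile scaling (0.32, adjusted p = 0.0392) and by limma-voom (0.25, adjusted p = 0.0405). Rpl3, which lies close to the catalytic centre, read 46.9, 61.2 and 47.6 CPM in FRC, 20.8, 20.8 and 21.4 CPM in steady-state RPF and 43.9, 25.9 and 39.7 CPM in depleted RPF. Its 3 depleted libraries thus lay under all FRC libraries, at a log2 difference of -0.51 ± 0.23 (SE, adjusted p = 0.115). The group means ran from depleted RPF over FRC to steady-state RPF in 62 of 78 members, 28 members were called in both of the first 2 comparisons, and 25 in neither. Both of those comparisons use the steady-state RPF libraries, with opposite sign, so their calls are not independent. Shares of all genes with this order or these joint calls were not computed, so the counts are not read as particular to the members.

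**Figure D4:**
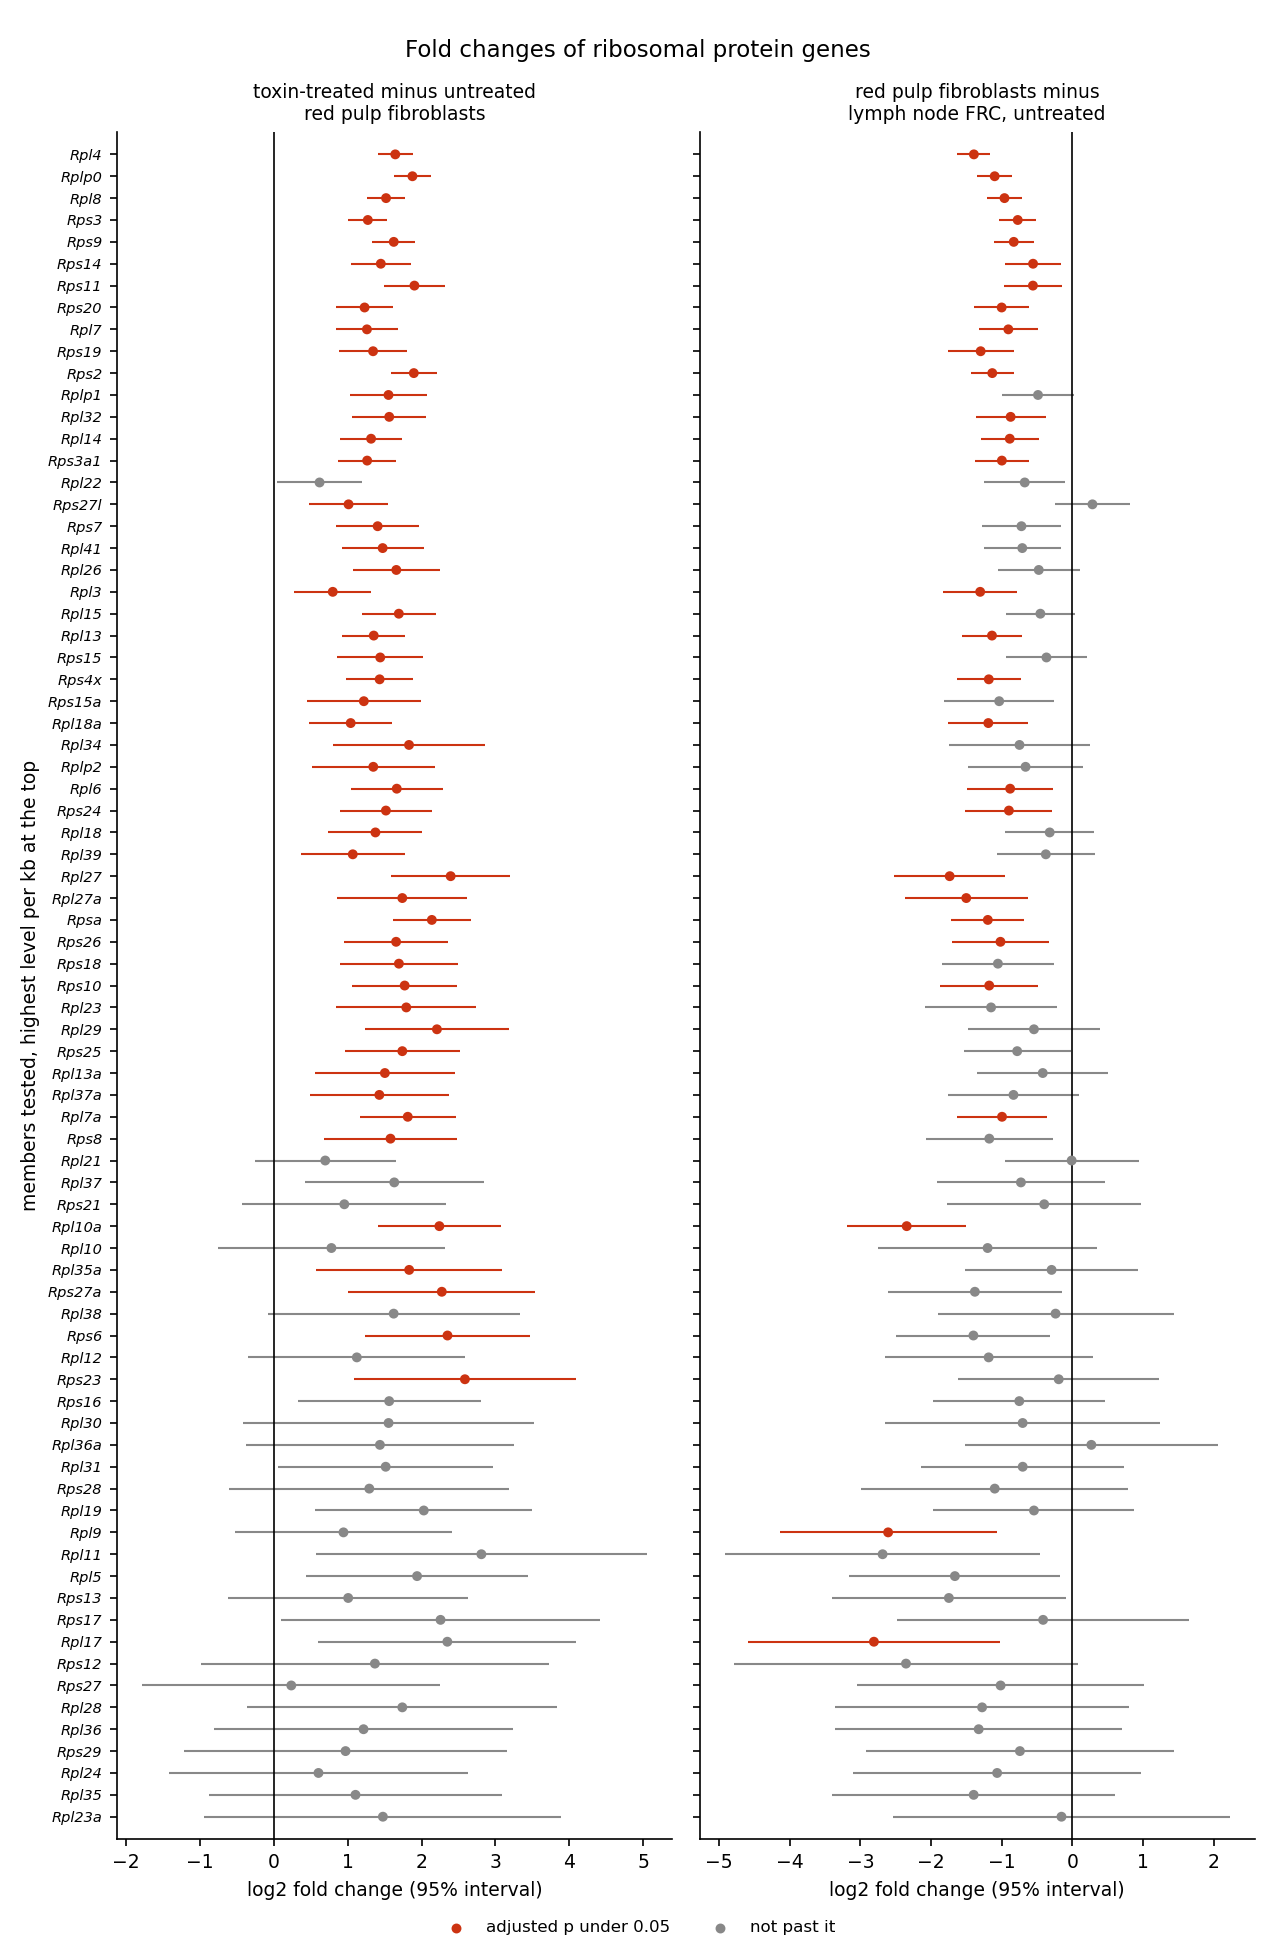
Log2 fold change of tested members after depletion (left, depleted minus steady-state RPF) and between the organs (right, steady-state RPF minus FRC), 1 row per gene from the highest level per kb down, with 95% intervals, in red where the adjusted p was under 0.05. After depletion all points lie above 0, and between the organs all but those of Rps27l and Rpl36a lie under 0.

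The members with the widest spread inside a group were low ones. Rps12 read 1.49, 0.614 and 5.49 CPM in FRC, Rpl30, a binder of structured RNA in the large subunit, read 2.61, 4.74 and 0.507 CPM, and Rpl11 spread as above. In each of these the 3 FRC libraries covered more than the distance between the groups' means, and none was called in any of the 3 comparisons by edgeR. FRC replicate 3 was the highest for Rps12 and the lowest for Rpl30 and Rpl11.

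Among 7 tested ribosomal proteins outside the name rule, 5 rose after depletion, against 11.1% of all genes. With each library left out, 2 to 5 did so. In steady-state RPF 2 of the 7 were lower than in FRC and none higher, against 14.4% and 11.5% of all genes. With total-count scaling 1 was lower and 1, Rpl7l1, was higher. Rack1, a scaffold protein on the small-subunit head, read 224, 253 and 234 CPM in FRC, 153, 148 and 159 CPM in steady-state RPF and 674, 623 and 711 CPM in depleted RPF. Its rise of 2.13 ± 0.10 (SE, log2, adjusted p = 8.47e-06) was larger than that of Rps2 or Rplp0, and it was lower, at -0.63, in steady-state RPF than in FRC (adjusted p = 0.00159; -0.05, adjusted p = 0.737, with total-count scaling). Fau, made as a fusion with a ubiquitin-like sequence, rose by 2.22 (adjusted p = 0.0481, or 0.0632 with total-count scaling). Rpl7l1 and Rpl36al rose by 1.24 (adjusted p = 0.000774) and 1.28 (adjusted p = 0.0174). Rpl22l1, the paralogue of Rpl22, was lower in RPF than in FRC, at -2.05 (adjusted p = 0.011), and its value after depletion was 1.14 (adjusted p = 0.114).

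Of 25 other mRNAs known for TOP tracts, 18 rose after depletion (median log2 1.07), against 11.1% of all genes. In steady-state RPF 16 were lower than in FRC and 1 higher (median -0.80), against 14.4% and 11.5% of all genes. With total-count scaling 17 rose, and between the organs 4 were lower and 1 higher. Eef2, the factor that moves the ribosome along, read 1233, 1571 and 1459 CPM in FRC, 609, 661 and 610 CPM in steady-state RPF and 1440, 1330 and 1437 CPM after depletion. On this scale depleted RPF lay within the FRC range, and with total-count scaling they were higher than FRC by 0.39 (log2, adjusted p = 0.0139). Eef1a1, which brings the aminoacyl-tRNA, rose by 1.22 (adjusted p = 8.25e-05) and was lower in steady-state RPF, at -1.01 (adjusted p = 9.3e-05). Eef1b2, its exchange factor, rose by 1.59 (adjusted p = 7.29e-05) and stood at -0.63 between the organs (adjusted p = 0.00526), or -0.06 (adjusted p = 0.764) with total-count scaling. Npm1, a nucleolar chaperone of ribosome assembly, rose by 2.51 (adjusted p = 5.45e-05), from 60.4, 41.9 and 53.6 to 349, 293 and 246 CPM. The gene higher in steady-state RPF than in FRC was Eif3m, at 0.53 (adjusted p = 0.0202).

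A list of 16 genes held mainly factors that escort ribosomal proteins into the nucleus and onto the ribosome, with some assembly factors. After depletion 10 of the 16 rose, with none lower (median 1.18). Nap1l1 is in this list and in that of other TOP mRNAs, so the lists overlap. Of all genes, 11.1% were higher and 9.96% lower. Ipo5, an importin, rose by 1.85 (adjusted p = 0.000397), and Grwd1, the chaperone of Rpl3, rose by 2.05 (adjusted p = 0.000616), from 36.8, 28.7 and 47.8 to 167, 153 and 149 CPM. Rrs1, which helps load the 5S particle, rose by 1.88 (adjusted p = 0.00246). Between the organs 4 of the 16 were lower in RPF and none higher, against 14.4% and 11.5% of all genes. With each library left out, 0 to 4 were lower and 0 to 2 higher. With total-count scaling none was lower and 9 were higher.

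Of 26 genes that control TOP mRNAs and mTORC1, 7 rose and 1 fell after depletion (median 0.24), against 11.1% and 9.96% of all genes, and 4 to 7 rose with each library left out. Sesn1, an inhibitor of mTORC1, was the one that fell, by 2.57 on the log2 scale, from 39.8, 43.9 and 45.0 CPM at steady state to 8.90, 5.48 and 7.30 CPM after depletion (adjusted p = 0.000238). Eif4g1, the scaffold of the cap-binding complex, rose by 1.45 (adjusted p = 0.000286). Larp1, the binder of TOP tracts, rose by 1.35 (adjusted p = 0.00158), a gene singled out after its values were seen. Between the organs 2 were higher and 3 lower in RPF, against 11.5% and 14.4% of all genes, while with total-count scaling 11 were higher and none lower. Mtor itself was higher in RPF by 1.13 (adjusted p = 0.0295), and Sesn2 was lower, at -0.88 (adjusted p = 0.0242), or -0.29 (adjusted p = 0.365) with total-count scaling.

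Among 14 tested genes of the Myc family and the factors that bind ribosomal protein promoters, 2 rose and 2 fell after depletion, against 11.1% and 9.96% of all genes. Myc, which drives ribosome production in growing cells, read 1513, 1808 and 1848 CPM in FRC, 76.0, 44.2 and 39.1 CPM in steady-state RPF and 279, 253 and 232 CPM after depletion. It rose by 2.26 after depletion (adjusted p = 0.000301) and was lower in steady-state RPF than in FRC, at -5.02 (adjusted p = 3.62e-06). With TMM scaling depleted RPF held 0.148 times the Myc of FRC. The part of Myc in the levels of the members was not tested. Mxd4, a repressor that competes with Myc for its partner, fell after depletion (log2 fold change -1.25, adjusted p = 0.000619) and was higher in RPF than in FRC, at 0.73 (adjusted p = 0.008). Genes for mitochondrial ribosomal proteins, which build a separate ribosome, were higher in 14 of 77 cases and lower in 0 after depletion (median 0.35, with 6 to 17 higher when each library was left out), against 11.1% and 9.96% of all genes. Between steady-state RPF and FRC 13 were higher and 2 lower (median 0.46), against 11.5% and 14.4% of all genes. With total-count scaling 11 were higher and 0 lower after depletion (median 0.19), and 51 higher and 1 lower between the organs (median 1.03). Their share of counts was 0.125% in FRC, 0.243% in steady-state RPF and 0.301% in depleted RPF.

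**Figure D5:**
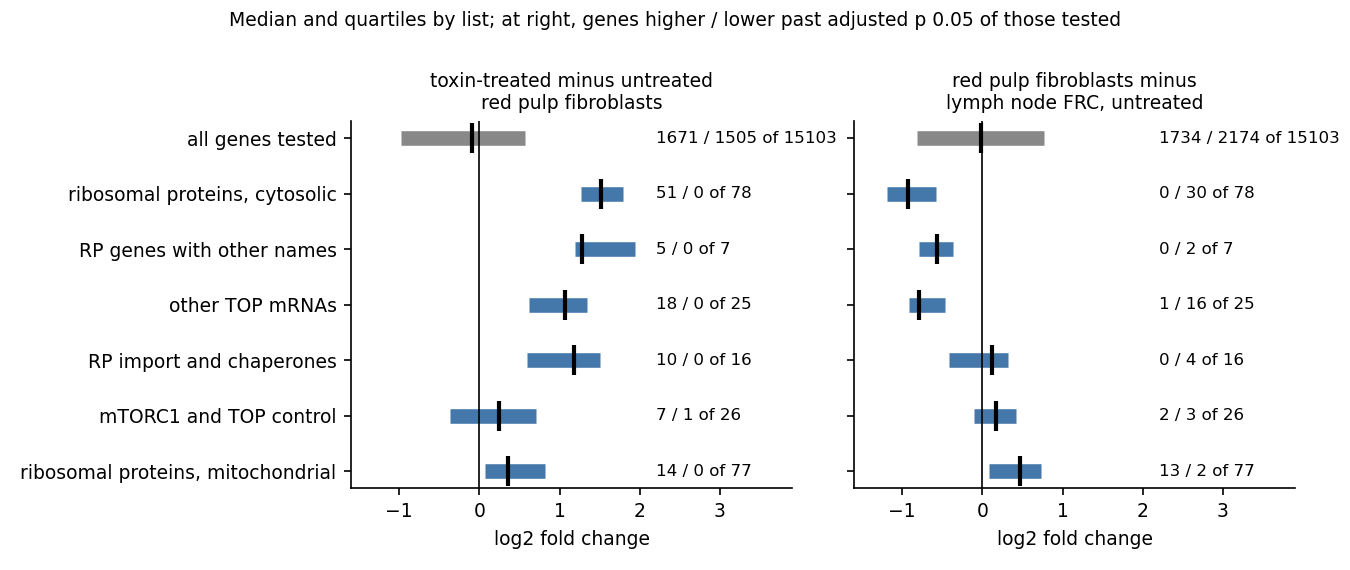
Median (black mark) and quartiles (bar) of the log2 fold changes of all tested genes, the members and the related lists, after depletion (left) and between the organs (right), with the numbers of genes higher and lower at an adjusted p under 0.05. After depletion the medians are 1.52 for the members, 1.28 for ribosomal proteins outside the name rule, 1.07 for other TOP mRNAs and 0.24 for the mTORC1 list.

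Of 16 proliferation genes, 1 was higher and 1 lower after depletion, against 11.1% and 9.96% of all genes, and 12 of the 16 values were positive with a median of 0.49. Between steady-state RPF and FRC 7 were higher and 1 lower, against 11.5% and 14.4% of all genes. With total-count scaling 10 were higher and 1 lower. Their summed level was 190 to 274 CPM in FRC, 286 to 363 CPM in steady-state RPF and 271 to 465 CPM in depleted RPF, so the RPF groups overlapped. Transcript length of the members was 368 to 1054 bases, and all genes in that range had a median log2 change of -0.02 between the organs, where the members' median was -0.93. Within the 78 tested members, length had a rank correlation of -0.39 with the difference between the organs and 0.20 with the change after depletion, against -0.01 and -0.06 over all genes tested. The part of length in these differences was not tested.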

How the data were processed

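PolyA RNA-seq of 9 libraries, each pooling 2 mice, was used. The deposited table gives raw counts per gene, made by the authors, per the submitters' processing notes, on the build mm10 with HTSeq 0.6.1p1 after STAR 2.5.3a, with cutadapt 1.10 and Bowtie2 2.2.8 also named. Strand setting, annotation release and treatment of reads with several matches were not given in the sources used here. Another 24 columns of per-sample values were not used. Replicates were numbered in accession order.

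Counts of 27370 genes were fitted together in edgeR 4.0.16 (R 4.3.3) with TMM scaling, filterByExpr, a robust quasi-likelihood fit with 1 term per group, which left 6 residual degrees of freedom. After the filter 15103 genes were tested, two-sided, with Benjamini-Hochberg adjustment over all of them and a threshold of 0.05. The script was tested on simulated data. Levels are TMM-scaled CPM, and levels per kb use the median transcript length in the deposited table. Members, lists and tests were chosen with earlier results of these data known. Named genes were the members with the smallest p, the highest and lowest levels, the widest spread, the stalk, 5S, signalling and l-suffix members, the low-count members and the leading called genes of each list; not all are given, and a few genes are not reported here. Other settings included RLE, upper quartile and total-count scaling, other filters, DESeq2 1.42.0, limma-voom (limma 3.58.1), pseudogene counts added and each library left out. Plots used matplotlib 3.10.9 under Python 3.11.15. Sequences and starts are from RefSeq, build GRCm38.p6.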

Additional observations from a re-analysis of the deposited data

How the results depend on the processing

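No paired analysis was possible because replicate numbers were given in accession order and the labels do not say which libraries came from the same mice. After depletion, the count of members called higher was 37 to 53 with each library left out, none was called lower in any of these fits, and the median log2 fold change was 1.43 to 1.67. Without the 2 libraries lacking Y-linked counts, a setting chosen after seeing the data, 38 were higher with a median of 1.53. Between steady-state RPF and FRC, leaving out each library gave 19 to 30 lower, 0 higher and a median of -1.01 to -0.79. Total-count scaling, added after seeing the data, gave 12 lower, 1 higher and a median of -0.36 there, and 42 higher with a median of 1.06 for depleted RPF against FRC. In that last comparison leaving out each library gave 15 to 22 higher, 0 lower and a median of 0.54 to 0.76, and DESeq2 and limma-voom each called 1 lower. The cause of these moves was not tested, apart from the shift of all genes: total-count scaling moved the median of all genes by -0.17 after depletion and 0.57 between the organs, and upper quartile scaling by -0.09 and 0.16. The share of called genes that were higher between the organs was 44.4%, 54.2% with upper quartile and 74.6% with total-count scaling. After depletion it was 52.6%, 46.4% and 41.0%. The range of member levels was 881-fold without length correction. Of 1125 values of 18 named members over 21 alternative settings and 3 comparisons, these changed sign, none of them called. Between steady-state RPF and FRC, Rpl23a was 0.025 with upper quartile scaling, 0.44 with total-count scaling and -1.23 to 0.38 with each library left out (positive without FRC replicate 3 or RPF steady replicate 1 or 2), Rplp1 was 0.086 with total-count scaling, and Rpl30 was -1.19 to 0.046 with each library left out (positive without FRC replicate 2). Between depleted RPF and FRC, Rpl35 was 0.11 with total-count scaling, Rps12 was -1.45 to 0.28 with each library left out (positive without FRC replicate 3), and Rpl11 was -0.38 to 0.60 (negative without FRC replicate 3 or depleted replicate 2). Of the 34 tested members with a mean under 10 CPM 8 were called after depletion, and of the 44 above it 43.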

Other observations

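Genes around p53, which the Rpl5 and Rpl11 particle is known to act on through Mdm2, were read as a list of 10. After depletion 4 were higher and 1, Sesn1, was lower, against 11.1% and 9.96% of all genes. Trp53 read 115, 115 and 107 CPM in steady-state RPF and 244, 255 and 242 CPM in depleted RPF, a log2 fold change of 1.14 (adjusted p = 0.000617 by edgeR). Its target Cdkn1a, a cell cycle inhibitor, rose by 1.30 (adjusted p = 0.00609), and Mdm2 rose by 0.99 (adjusted p = 0.0172). Between the organs Cdkn1a was lower in steady-state RPF, at -3.33 (adjusted p = 2.89e-05), with 476, 455 and 541 CPM in FRC and 41.5, 42.5 and 62.5 CPM in RPF. Mdm2 was lower as well, at -1.24 (adjusted p = 0.00472), or -0.66 (adjusted p = 0.0591) with total-count scaling. Bax, which promotes cell death, was higher in steady-state RPF, at 0.75 (adjusted p = 0.0173). With total-count scaling 5 of the 10 were higher and 1 lower between the organs, against 1 higher and 2 lower with TMM. Of 17 genes for the removal of surplus ribosomal proteins and stalled ribosomes, 3 rose after depletion and none fell, against 11.1% and 9.96% of all genes; with total-count scaling 3 rose and 1 fell. They included Abce1, which splits ribosomes for reuse, at 1.28 (adjusted p = 0.000189), and Zfp598, a sensor of collided ribosomes, at 1.06 (adjusted p = 0.00925).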
